A study of Mus musculus with 2 samples.

Results

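Genes that mark injured and regenerating gut epithelium were examined in the colon of mice that lack the prostaglandin E2 receptor EP4 in the intestinal epithelium. The 9 genes, Ly6a, Ly6e, Anxa1, Anxa3, Clu, Emp1, Msln, Sprr1a and Plaur, were chosen by name as markers of repair or of a fetal-like state, and every probe whose RefSeq accession mapped to 1 of these symbols was taken. They had 11 probes and were 9 of 14679 genes with a value. The 7 genes other than Anxa1 and Anxa3 had 1 probe each.

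Gene expression was measured on 2 Agilent 1-colour arrays, 1 for each genotype. The control array held whole colon RNA of Villin-Cre mice, which carry a Cre recombinase driven in intestinal epithelium. The other held whole colon RNA of Villin-Cre; EP4flox/flox mice (EP4 cKO), which carry the same transgene and floxed alleles of Ptger4, the gene of EP4. Both were C57BL/6, the study's methods give an age of 8 weeks for its mice, neither group was given a treatment in the labels, and 3 pools of colon went into each RNA. With 1 array for each genotype there is no spread between mice, so no test was made, no p-value is given, and every fold below compares these arrays rather than the genotypes. In RNA of a whole tissue, fewer cells of a type and less RNA per cell cannot be told apart.

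After damage, surviving cells of the gut lining can leave their mature or stem cell program and switch on genes that are otherwise found in the fetal gut. Ly6a, which encodes the surface protein Sca-1, is the usual marker of that state, and annexins, Clu, Emp1, Msln and Sprr1a are among the genes that accompany it. The YAP and TEAD regulators of the Hippo pathway, the AP-1 factors and interferon signalling are known inputs to such programs.

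Promoters of 4 of the 9 genes were held in the RefSeq table used here (build GRCm38.p6), each from 250 bases before to 50 bases after a start site. That table held no entry for Ly6a, Ly6e, Anxa3, Clu and Msln. All 4 genes shown read over 2-fold higher with EP4 cKO RNA, as did 4.88% of all genes with a value. Ly6a and Ly6e, which are not shown, also read over 2-fold higher. Both strands were searched for 5 short motifs. GGAATG is the site of TEAD factors and TGANTCA that of AP-1. GAAANNGAA is similar to the interferon-stimulated response element. TTCNNNGAA is the element bound by STAT factors (GAS). The core promoter box was searched as TATAAA. Capitals mark every match, and each run reads 5′ to 3′ on the strand of its gene.

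Emp1, chr6:135362681-135362980, plus strand: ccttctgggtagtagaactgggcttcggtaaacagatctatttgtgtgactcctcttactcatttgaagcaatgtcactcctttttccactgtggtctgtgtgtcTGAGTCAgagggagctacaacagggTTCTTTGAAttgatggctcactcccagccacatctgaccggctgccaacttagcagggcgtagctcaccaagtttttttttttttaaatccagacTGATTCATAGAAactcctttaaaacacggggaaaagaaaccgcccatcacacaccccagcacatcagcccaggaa
Sprr1a, chr3:92485832-92486131, minus strand: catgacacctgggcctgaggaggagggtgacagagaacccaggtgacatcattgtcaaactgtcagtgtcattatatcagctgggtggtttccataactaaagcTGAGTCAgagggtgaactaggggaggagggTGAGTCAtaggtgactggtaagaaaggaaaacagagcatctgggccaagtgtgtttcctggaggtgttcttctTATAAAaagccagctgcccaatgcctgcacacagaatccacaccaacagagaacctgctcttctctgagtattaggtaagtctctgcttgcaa
Plaur, chr7:24462233-24462532, plus strand: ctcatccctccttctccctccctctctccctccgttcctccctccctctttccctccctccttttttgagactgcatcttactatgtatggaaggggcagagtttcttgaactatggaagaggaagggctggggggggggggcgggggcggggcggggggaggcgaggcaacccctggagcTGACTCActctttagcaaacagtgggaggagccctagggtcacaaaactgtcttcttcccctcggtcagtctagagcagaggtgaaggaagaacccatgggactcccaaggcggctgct
Anxa1, chr19:20390622-20390921, minus strand: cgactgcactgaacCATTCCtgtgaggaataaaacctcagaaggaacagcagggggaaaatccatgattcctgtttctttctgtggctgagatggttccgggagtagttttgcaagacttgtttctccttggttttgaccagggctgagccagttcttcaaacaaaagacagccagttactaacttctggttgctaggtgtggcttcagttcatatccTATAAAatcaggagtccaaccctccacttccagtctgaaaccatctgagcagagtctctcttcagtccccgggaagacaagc

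The AP-1 letters were found in 3 of these 4 genes (3 of their 5 windows), and in 7.81% of 32851 promoters of the same length. The Emp1 window held them at 145 and 25 bases before the start, the Sprr1a window at 146 and 116, and the Plaur window at 69. The Emp1 window also held the GAS letters at 120 and 22 bases before the start, the nearer of which overlaps the AP-1 match at 25 (8.30% of all promoters hold a GAS match). The Anxa1 window held the TEAD letters, in reverse as CATTCC, at 236 bases before the start (14.7% of all promoters). TATAAA stood 32 bases before the start of Anxa1 and 43 before that of Sprr1a (13.6% of all promoters). A second Emp1 start site held none of the 5 motifs in its window, and the interferon-type letters, present in 8.56% of all promoters, were in no window of these genes. Ly6a and Ly6e had no window to search. A match is a run of letters and not evidence that a factor binds there.

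The deposited signals were scaled so that the trimmed mean of each array was 2500, and a ratio is EP4 cKO over Villin-Cre. A probe counted as measured where the scanner software flagged it as well above background, which held for 25683 probes (45.4%) with Villin-Cre RNA and 29177 (51.6%) with EP4 cKO RNA. Genes took their brightest such probe. A probe below background on 1 array has only a bound, taken at the lowest measured signal of that array (125 for Villin-Cre and 57.8 for EP4 cKO) or at the probe's own signal where that was higher. The median log2 ratio over all genes with a value was -0.10. Other scalings moved the median over probes by 0.13 to 0.18, and scaling to 8 spiked-in E1A control probes, chosen after seeing the data, moved it by 1.04. The targeted gene did not separate the arrays by its label: the brighter Ptger4 probe read 6227 for Villin-Cre and 5661 for the array labelled EP4 cKO (log2 ratio -0.14), and the dimmer one read 393 and 592 (0.59). The paper reports loss of EP4 by qRT-PCR in crypts isolated from EP4 cKO colon. It also describes EP4 in lamina propria cells, which whole colon RNA includes. Their part in the Ptger4 signal was not tested. Where these probes lie relative to the floxed part is not known from the files, so every direction below is that of the array labelled EP4 cKO.

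All 9 genes were measured on both arrays. On the EP4 cKO array 6 of them were more than 2-fold higher, Emp1, Ly6a, Sprr1a, Anxa1, Plaur and Ly6e. Clu was more than 2-fold lower, and Anxa3 and Msln lay within 2-fold. Of all genes with a value, 4.88% were more than 2-fold higher and 7.98% lower, and of the 12808 genes measured on both arrays 4.05% were higher and 6.26% lower. The median log2 ratio of the 9 genes was 1.43, with single genes between -3.22 and 4.50. By this fold 6 of the 9 genes read higher, the direction of the repair label, and Clu read the other way. The genes were chosen with earlier results of these data known, so the count does not test that label.

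**Figure D1:**
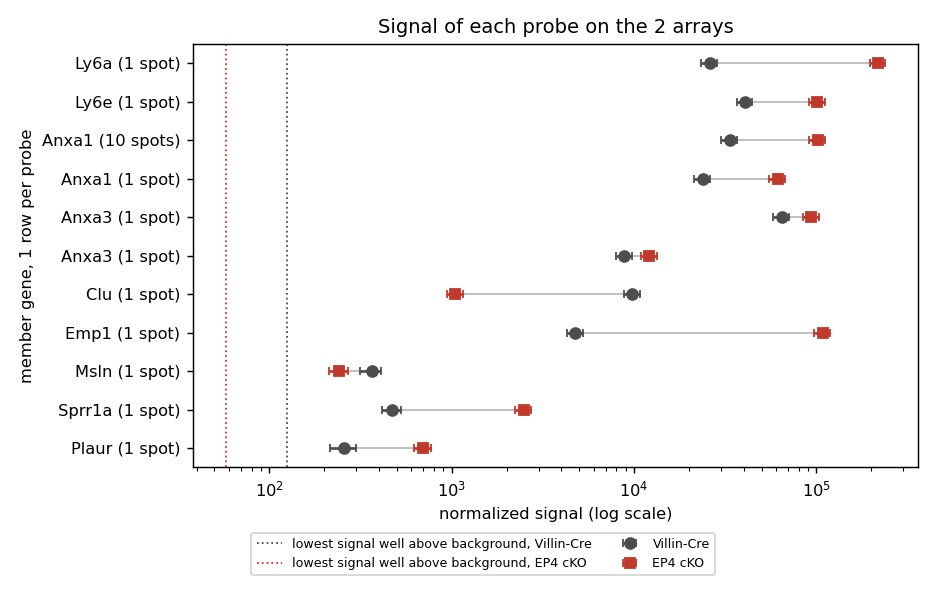
Normalized signal (log scale) of the 11 probes on the Villin-Cre (circles) and EP4 cKO (squares) arrays, with the error the scanner software gives each spot as bars and the lowest signal well above background on each array as dotted lines. The Emp1 and Ly6a probes are the farthest to the right of their control value, Clu is the farthest to the left, and Msln, Sprr1a and Plaur lie nearest to the dotted lines.

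Emp1 encodes a small membrane protein of epithelial cells and showed the widest gap of the 9. Its signal was 4775 in Villin-Cre and 108405 in EP4 cKO RNA, a 22.7-fold difference (log2 ratio 4.50, spot error 0.20). Of the 12808 genes measured on both arrays, 29 (0.226%) had a higher ratio. Among its relatives, Pmp22 read 118702 and 202680 (0.77, and 1.02 on its dimmer probe) and Emp2, 6889 and 6740 (-0.03). Emp3 read 145 and 67.2 (-1.11), near the lowest measured signals, and its ratio was -0.38 after normexp correction with quantile normalization and -0.07 with the E1A scaling. Emp1 was the only 1 of the 4 measured family members with a higher call.

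Ly6a encodes a surface protein held by a lipid anchor. It read 25989 in Villin-Cre and 217352 in EP4 cKO RNA, 8.36-fold more (log2 ratio 3.06, spot error 0.20), and 64 genes (0.5%) had a higher ratio. Ly6e, a relative that is induced by interferons, read 40515 and 101222, 2.50-fold more (1.32, spot error 0.20), with 319 genes (2.49%) above it. Ly6a therefore had the larger ratio of this pair, by more than both spot errors.

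Other genes of the same cluster on chromosome 15 also read higher. From Slurp1 to Gpihbp1 the cluster holds 25 protein-coding genes besides Ly6a and Ly6e, of which 17 had a probe and 14 a value: 8 were more than 2-fold higher and none more than 2-fold lower (median log2 ratio 1.52). Ly6m, next to Ly6e and singled out after its values were seen, went from 1107 to 30282 (4.77). Ly6c2 read 65616 and 372306 (2.50), and Ly6f 845 and 5337 (2.66). Slurp1, a secreted member, read 184 and 1274 (2.79, and 2.02 after normexp correction). Ly6d, below background for Villin-Cre at 84.1 and at 998 for EP4 cKO, was at least 7.96-fold higher by that bound (log2 ratio 2.99, and 2.29 after normexp correction). Not every gene of the cluster moved: Ly6i, which lies between Ly6e and Ly6a, read 201 and 177 (-0.18, and 0.86 with the E1A scaling).

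Probes of 1 gene could differ within the family. The brighter Ly6c1 probe read 63810 and 352069 (2.46), and the dimmer one 374 and 16497 (5.46). Ly6a, Ly6c1 and Ly6c2 are close in sequence, and whether their probes also bind each other's transcripts was not tested. Of the listed Ly6 genes on chromosome 15 other than Ly6a and Ly6e, 7 of 11 with a value were more than 2-fold higher, and of those on other chromosomes 0 of 6 were and 1 was lower (Ly6g6d, 2931 and 1379, -1.09, and -0.81 after normexp correction). Ly6g6c had probes of opposite direction (-0.72 and 2.21), and its brighter one turned to 0.32 with the E1A scaling. Lypd8, which shields the colon surface from bacteria, read 1092900 and 857310 (-0.35, and 0.69 with the E1A scaling).

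**Figure D2:**
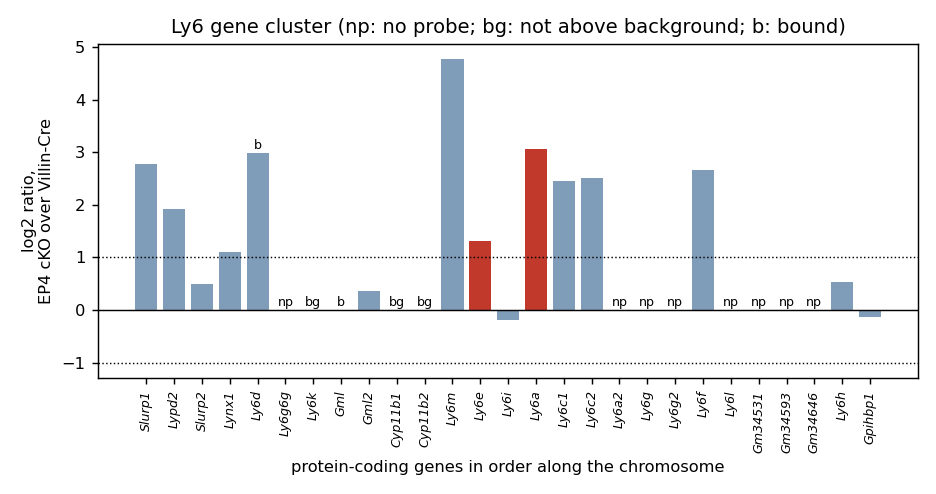
Log2 ratio, EP4 cKO over Villin-Cre, of the protein-coding genes from Slurp1 to Gpihbp1 in their order along chromosome 15, with Ly6a and Ly6e in red, dotted lines at 2-fold and genes without a ratio marked. Of the 16 genes with a value, Ly6a and Ly6e included, 10 lie above the upper line and none below the lower line.

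Anxa1, a calcium-dependent phospholipid-binding protein that promotes resolution of inflammation and wound closure, had the most closely measured value of the set. Its brighter probe was spotted 10 times: the spots ran from 30667 to 36501 for Villin-Cre and from 94950 to 108600 for EP4 cKO, without overlap. The means were 33502 and 101425, 3.03-fold apart (log2 ratio 1.60, SD over spots 0.040), an error of spotting only. The second probe read 23736 and 61288 (1.37). 207 genes (1.62%) had a higher ratio than Anxa1.

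Anxa3 moved the same way but less. Its probes read 64386 and 93501 (1.45-fold, log2 ratio 0.54, spot error 0.20), and 8818 and 12139 (0.46). It lay within 2-fold under every setting except the E1A scaling (1.58), and 1271 genes (9.92%) had a higher ratio. The 8 other annexins with a value split around no difference: Anxa8, 58217 and 202948 (1.80), was the 1 past 2-fold, Anxa2 had 0.84 and Anxa4 0.46 (1.05 on its dimmer probe). Anxa11 was the lowest at -0.86 (0.18 with the E1A scaling).

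Sprr1a, a precursor of the cornified envelope of squamous epithelia, read 470 in Villin-Cre and 2483 in EP4 cKO RNA, 5.29-fold more (log2 ratio 2.40, spot error 0.23). 97 genes (0.757%) had a higher ratio, and the lowest value under any setting was 2.15. Of its 14 listed relatives 6 had a value and 3 were more than 2-fold higher: Sprr2h, Sprr2k, 38164 and 87016 (1.19), and Sprr2b, 65821 and 142057 (1.11). Sprr2h has only bounds: its probe at 27.6 (below background) and 3079 was at least 24.6-fold higher (log2 ratio 4.62, and 3.65 after normexp correction), and its other probe at least 6.29-fold. Sprr2a2 had 3 probes at 0.02, 1.09 and -0.63, and this family also holds near-identical copies. Sprr1b and Sprr3 were not above background on either array. The marker list of squamous epithelium, which expresses SPRR genes, held 11 of 14 genes with a value, none past 2-fold (median log2 ratio -0.13), and its summed signal was 13303 and 14265.

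Plaur, the receptor that holds urokinase at the cell surface for plasminogen activation and cell migration, lay near background on the Villin-Cre array. It read 257 there, 2.05 times the lowest measured signal, and 695 on the EP4 cKO array, 2.70-fold more (log2 ratio 1.43, spot error 0.27). 270 genes (2.11%) had a higher ratio, and the normexp correction with quantile normalization lowered it to 1.09. The rest of the plasminogen system gave little to set beside it. Urokinase itself (Plau), Plg and the inhibitors Serpine2, Serpinb2 and Serpinf2 were not above background on either array. Of the 3 other genes with a value, Plgrkt, a plasminogen receptor, had a log2 ratio of 0.61 and Lrp1, which clears protease complexes, -0.78 (0.26 with the E1A scaling), and Plat, a bound, had 0.19 (0.83 after loess).

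Clu, a secreted chaperone that marks revival stem cells of the injured gut, went the other way. Its signal was 9784 in Villin-Cre and 1049 in EP4 cKO RNA, 9.33-fold lower (log2 ratio -3.22, spot error 0.20), and 23 genes (0.180%) had a lower ratio. It stayed between -3.22 and -2.18 under all 8 settings. Clu is also expressed by stromal cells, and the fibroblast list was lower too: all 6 of its 8 genes with a value were more than 2-fold lower, under each scaling as well, and their summed signal was 14216 and 304, the latter with 4 genes at signals not above background. Their median log2 ratio was -4.66, with 4 of the 6 values being bounds, and -2.71 after normexp correction. Dcn read 6006 and 110 (-5.77, and -4.17 after normexp correction), Col1a2 3613 and 111 (-5.03, and -3.32), and Col1a1, Col3a1, Mfap5 and Lum were not above background on the EP4 cKO array. The part of this in the Clu value was not tested.

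Msln encodes mesothelin, a surface protein of the mesothelium and of some injured epithelia. It read 364 and 242 (log2 ratio -0.59, spot error 0.25), 2.91 times the lowest measured signal of the Villin-Cre array. Its direction was the same in 7 of 8 settings and turned with the E1A scaling (0.45). Its size was not stable: the ratio was -0.10 after normexp correction with quantile normalization and -0.30 after loess. Probes of similar brightness had a median of -0.30. None of the 7 mesothelium markers with a probe was above background on either array.

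**Figure D3:**
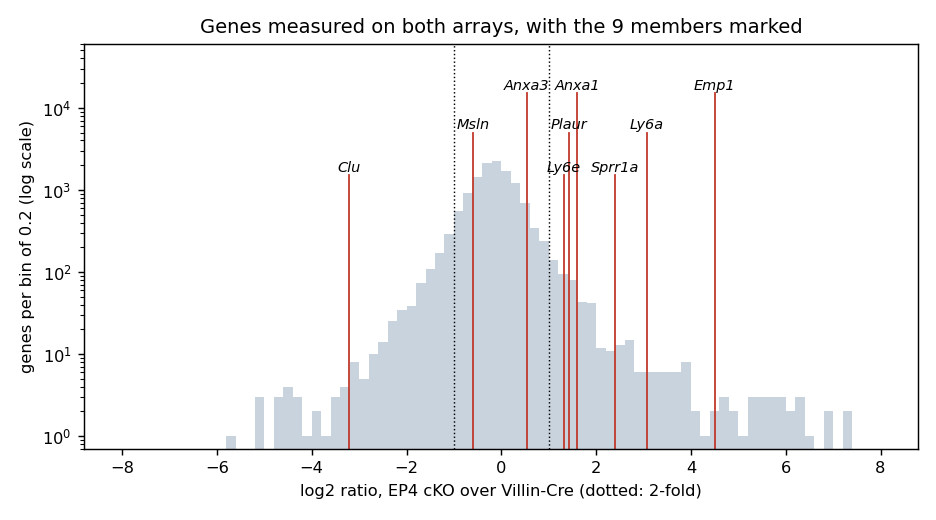
Histogram (log scale) of the log2 ratio, EP4 cKO over Villin-Cre, of the 12808 genes measured on both arrays, with red lines at the 9 genes and dotted lines at 2-fold. Emp1 and Ly6a lie in the thin upper tail with 29 and 64 genes above them, Clu lies in the lower tail with 23 genes below it, and Anxa3 and Msln lie in the body.

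Further genes of the repair and fetal-like state were described from a list of 24, of which 18 had a value. Past 2-fold were 3 of them, all higher. The median log2 ratio of the 18 was 0.46, and 0.69 over the 14 measured on both arrays. The count higher was 4 after normexp correction or loess, 5 with the 75th percentile scaling and 11 with the E1A scaling. Among the 3 were Anxa8, given above, and S100a11, a partner of Anxa1, at 5416 and 12030 (1.15). Cd44 stood just under 2-fold (319 and 623, 0.96). Gja1, Spp1, Ereg, Anxa10 and Ptgs2 were among those not above background on either array.

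Targets of YAP and TEAD did not move in 1 direction. Of 22 listed genes 16 had a value, 1 was more than 2-fold higher and 5 lower, with a median log2 ratio of 0.14. Nt5e read 13351 and 34609 (1.37). The best known target among those with a value, Ccn1, read 772 and 224 (-1.78, and -0.99 after normexp correction), and Axl read 1155 and 280 (-2.05, and -1.30 after that correction). Igfbp3 (-1.26) was lower too, as were Ccdc80 and Fjx1, which have only bounds since they were not above background for EP4 cKO. Of the 5 lower calls 2 were left after normexp correction, 3 after loess and 2 with the E1A scaling, which also raised the higher calls to 9. Ccn2 and Ankrd1 were not above background on either array. Several of these genes are also expressed by stromal cells, whose listed markers were lower as given beside Clu, and their part was not tested.

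Crypt stem cell genes, which fall when the gut lining turns to a fetal-like state, stayed mostly within 2-fold: of 13 with a value 1 was more than 2-fold higher and 2 lower (median log2 ratio -0.18). None was lower by that fold after normexp correction, after loess or with the 75th percentile or E1A scaling. Lgr5 read 1541 and 723 (-1.09), but -0.77 after normexp correction and -0.05 with the E1A scaling. Rgmb read 216 and 99.6 (-1.12, and -0.22 after normexp correction). Within 2-fold, Ascl2 (-0.93), Smoc2 (-0.85), Lrig1 (-0.81) and Sox9 (-0.67) read lower too, but from 0.11 to 0.37 with the E1A scaling. Only Prom1, 612 and 1474 (1.27), and Tnfrsf19 (0.02) read higher. All 11 general epithelial markers were measured on both arrays, while several markers of the other layers of a whole colon, given at the end, were not. Krt20, a keratin of mature surface cells, was the 1 past 2-fold at 146575 and 510711 (1.80). Their median was 0.10.

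Interferon-stimulated genes were higher on the same array as Ly6a and Ly6e. All 19 listed genes with a value were more than 2-fold higher (15 of 15 of those measured on both arrays), with log2 ratios from 1.36 to a bound of 6.07. The median was 4.13, itself a bound like 4 of the 19 values in all, and 3.95 over the genes measured on both arrays. Their summed signal was 140264 and 877735. Isg15 read 3118 and 144026 (5.53), and Gbp2 720 and 38141 (5.73). The part of interferon signalling in the Ly6a and Ly6e values was not tested.

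Immune and vessel cells also express Ly6 genes and Plaur. Of T cell markers 1 of 8 with a value was more than 2-fold higher (Cd3g, 208 and 504, log2 ratio 1.28, but 0.88 and so within 2-fold after normexp correction), with a summed signal of 13288 and 14005. Of macrophage markers 1 of 7 was higher (Mrc1, at least 4.31-fold, log2 ratio 2.11, and 1.41 after normexp correction), Adgre1 and Lyz2 were not above background, and the sum was 14362 and 19931. Of neutrophil markers 2 of 5 were higher (S100a9, 289 and 689, and S100a8, at least 2.83-fold), and the sum was 109204 and 84872, of which Csf3r, within 2-fold, gave 106452 and 81629. Of 11 endothelial markers 8 were not above background on either array and the other 3 were within 2-fold, with sums of 658 and 521. Of 6 smooth muscle genes with a value 1 was lower (Cnn1, 479 and 72.3, log2 ratio -2.73, and -1.04 after normexp correction). Myh11, Synpo2 and all 6 enteric glia genes were not above background on either array. The part of these cells in the values of the 9 genes was not tested.

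**Figure D4:**
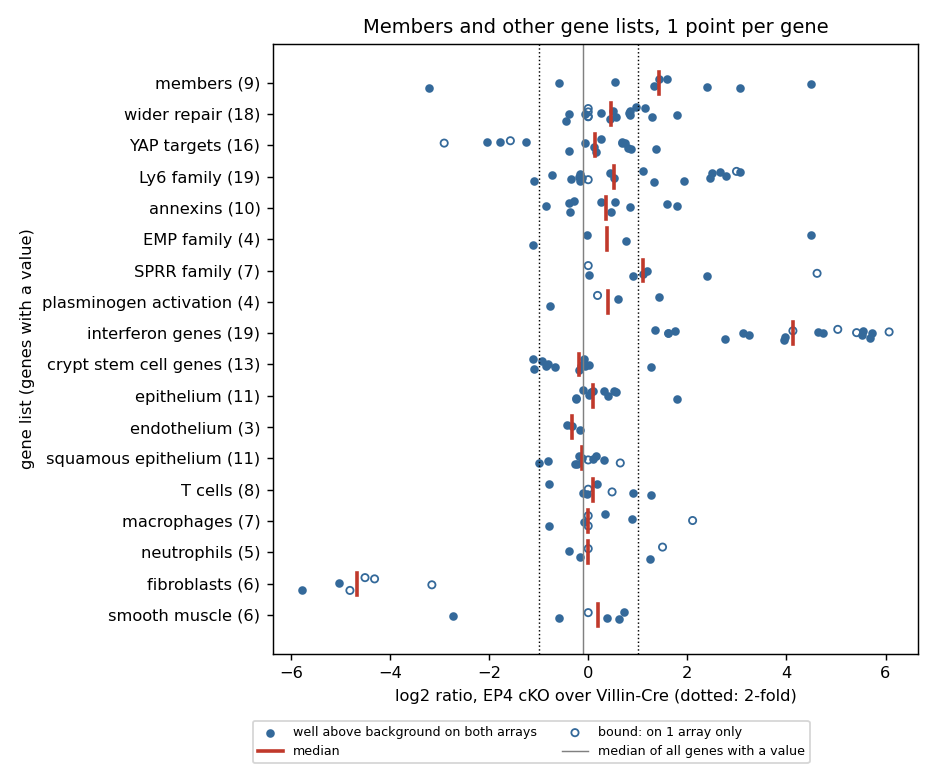
Log2 ratio, EP4 cKO over Villin-Cre, of each gene with a value in the 9 genes and 17 other lists (filled: measured on both arrays, open: a bound), with the median of each list in red, the median of all genes in grey and dotted lines at 2-fold. The Ly6, annexin, EMP, SPRR and plasminogen lists also hold those of the 9 genes that belong to them. The 9 genes have a median of 1.43 and spread to both sides, the interferon genes lie all to the right (median 4.13) and the fibroblast genes all to the left (median -4.66).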

How the data were processed

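The authors deposited the scanner output of each array (Feature Extraction 12.0.3.1 per the file headers, 11.5.1.1 per the submitters' processing notes), and the intensity used here is its processed signal, already background-subtracted. Control spots and flagged outlier spots (147 for Villin-Cre, 126 for EP4 cKO) were dropped, spots of a probe were averaged, and each array was scaled to a trimmed mean of 2500 (2% off each end), as in the study's methods. No spot was saturated. A bound that did not exceed 1-fold was counted at a log2 ratio of 0.

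RefSeq accessions without version named 32989 of 56593 probes (58.3%), or 22909 genes, through GRCm38.p6. The grid refers to an older build, so no probe coordinates are given, and probes that match no RefSeq accession were not named. Levels of different probes do not rank genes, since probes differ in brightness, and a summed signal of a list is weighted to its brightest probes.

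The study gives 3 samples for each genotype, and 2 arrays were analysed here. The spot error is that of the software's error model, and for the 278 probes with 10 spots the log2 ratio had a median SD of 0.035. Both cover the array alone, and the number of arrays limits the precision. The named genes were all members with every probe and, from each other list, genes past 2-fold, at most the 5 largest. Others given as values were chosen after they were seen. Some genes of the lists are counted in them but not reported by name here. The members and lists were chosen with earlier results of these data known. Alternatives were scaling to the 75th percentile, normexp (limma 3.58.1, offset 50, on median spot signals since mean signals were not used here) with quantile normalization, loess (span 0.3), a trimmed mean over all spots, a stricter and no filter on low signals, calls at 1.5-fold or 3-fold, averaging a gene's probes, and the E1A scaling. Python 3.11.15 with pandas 2.3.3 and statsmodels 0.14.6 was used, and the steps were tested on simulated data.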

Additional observations from a re-analysis of the deposited data

How the results depend on the processing

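The count of members more than 2-fold higher was 6, became 4 at a 3-fold threshold and 7 with the E1A scaling, and was 6 under the others. The count lower was 2 instead of 1 at a 1.5-fold threshold, where Msln joined Clu, and 1 under the others. The median log2 ratio of the members, 1.43, was 1.59 with the 75th percentile, 1.34 with normexp and quantile normalization, 1.65 with loess, 1.57 with a trimmed mean over all spots and 2.48 with the E1A scaling. Anxa3 passed 2-fold and Msln changed sign with the E1A scaling alone, and the other 7 genes kept their direction and their side of 2-fold under all 8 settings of scaling, filter and probe.

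Counts over all genes moved more: 717 higher and 1171 lower became 942 and 921 with the 75th percentile, 605 and 394 with normexp, 1063 and 726 with loess, 906 and 958 with the trimmed mean over all spots, 1172 and 7253 without a filter on dim probes, and 5817 and 338 with the E1A scaling. The cause was not tested. No replicate could be left out with 1 array for each genotype. No paired analysis was possible because each genotype has 1 array and no result comes from a test. Plaur, Msln and Sprr1a lay nearest to background, and genes below it on both arrays have no ratio.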
